A study of Homo sapiens with 6 samples.

Results

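The NOTCH receptor and target genes examined here are 10 genes picked by name from the 50868 genes of the deposited table: the receptor genes NOTCH1, NOTCH2 and NOTCH3, the DNA-binding partner gene RBPJ, and the target genes HES1, HES4, DTX1, NRARP, TRIB2 and SHQ1. All 10 were found, each once. Their mRNA was read by bulk RNA sequencing of CUTLL1, a human cell line established from T-cell acute lymphoblastic leukaemia (T-ALL). One arm was infected with a lentivirus carrying a short hairpin RNA (shRNA) against AURKB (shAURKB, 3 libraries), which encodes the mitotic kinase Aurora B, and the other with a control shRNA named for GFP (shGFP, 3 libraries). Every culture carried a lentiviral shRNA, underwent puromycin selection and was harvested at 48 h, and no uninfected culture was among them. The labels name 1 hairpin target per arm, and all libraries come from 1 cell line.

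NOTCH receptors are surface proteins that are cut after ligand binding, first by a shedding protease and then by gamma-secretase. The freed intracellular domain enters the nucleus, joins the DNA-binding protein RBPJ and a Mastermind coactivator, and switches on target genes. The pathway commits precursors to the T lineage and is an oncogenic driver in T-ALL. In CUTLL1 a translocation joins NOTCH1 to the T-cell receptor beta locus, which yields a truncated receptor active without ligand. Counts over the whole NOTCH1 gene do not separate the rearranged allele from the intact one.

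Library totals were 10446722 to 11641019 counts in the shAURKB arm and 10154187 to 11922979 counts in the shGFP arm. AURKB mRNA, the check of the labels, was at 39.9 ± 3.93 CPM (counts relative to library size) with shAURKB and 101.5 ± 5.1 CPM with shGFP (SD, n = 3 each), and no library overlapped the other arm. The T-lineage genes CD3D, CD3E, CD3G, CD7, CD5, CD1A, CD1B, CD1E, PTCRA and LCK summed to 2555 to 2654 CPM with shAURKB and 2412 to 2511 CPM with shGFP, with PTCRA at or below 1.13 CPM in all 6 libraries. Within that sum CD3D, CD3E and LCK rose, by 0.17, 0.21 and 0.13 in log2 units, and CD1B and CD1E fell by 0.36 and 0.45 (edgeR). One control library, shGFP replicate 1, held 17.6 CPM of 5 fibroblast markers and 9.16 CPM of 5 epithelial markers. The 5 other libraries held at most 0.388 CPM and 1.16 CPM of these. In shGFP replicate 1 COL1A2 alone had 17.5 CPM, and KRT8, KRT18 and KRT19 had 3.11, 3.68 and 2.17 CPM. The epithelial markers EPCAM and CDH1 had 0.189 and 0 CPM there. The fibroblast markers COL3A1, DCN and LUM were at 0 in all libraries. B-cell markers summed to 16.2 to 20 CPM with shAURKB and 20.4 to 22.2 CPM with shGFP, with MS4A1 at 0, and their part in the results below was not tested.

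Of the 10 genes, 9 had enough reads to be tested, and 4 of these differed between the arms at an adjusted p below 0.05 (edgeR quasi-likelihood test). Across all 14818 tested genes 23.3% did so, 12.5% higher and 10.9% lower with shAURKB. Higher genes were 53.4% of those calls, and 38.8% with upper-quartile scaling. NOTCH1 was the 1 gene that rose, and NOTCH2, NOTCH3 and HES4 fell. The arms did not overlap in 6 of the 9 genes, 2 higher and 4 lower, against 42.6% of all tested genes, 21.7% higher and 20.9% lower. NOTCH3 and HES4 passed the test with a fall of at least 2-fold, as did 1.81% of all tested genes. HES4 was kept by the low-count filter through its control libraries, where it was high, and DESeq2 gave it no adjusted p. The median log2 fold change was -0.09 over the 9 genes and -0.0042 over all tested genes. The genes were chosen with earlier results known, so these counts describe them and test nothing. In a bulk sample fewer cells with a transcript and less transcript per cell cannot be told apart.

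**Figure D1:**
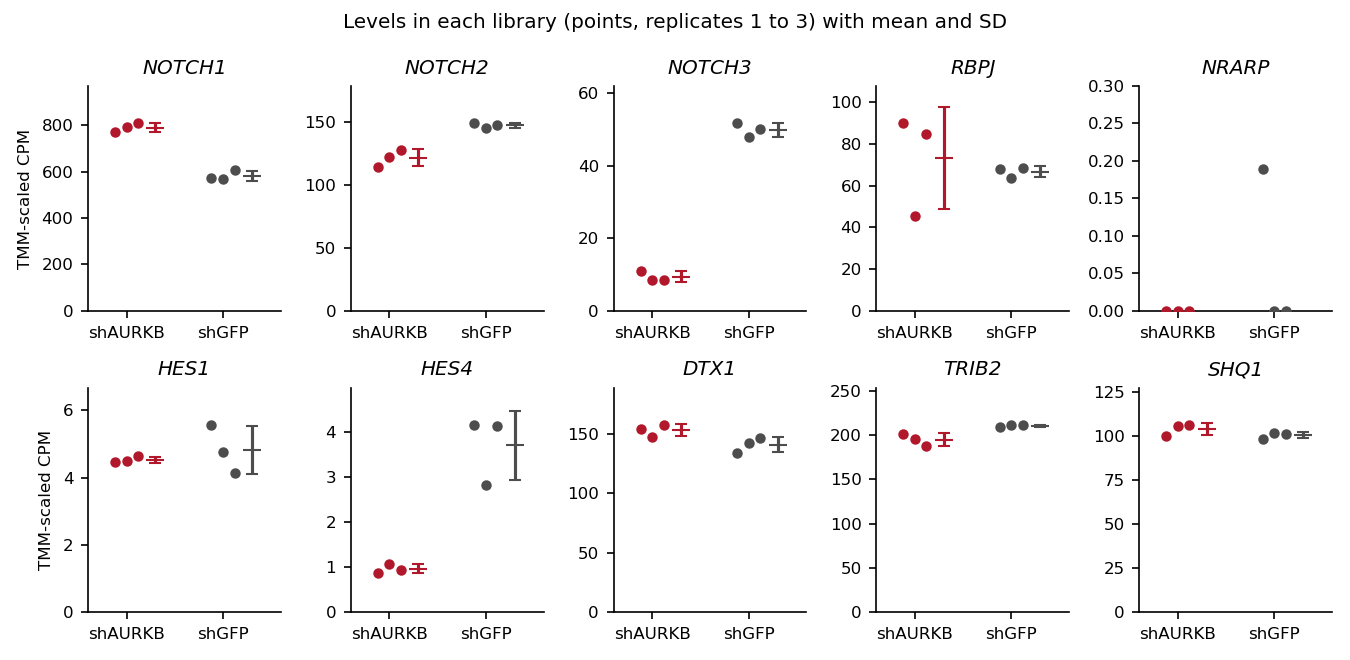
Level of each of the 10 genes in each library, in CPM on a linear axis from 0, for shAURKB (red) and shGFP (grey); points are replicates 1 to 3 and bars the mean with SD, except for NRARP, which has points alone. The NOTCH3 points sit between 8.58 and 11.1 CPM with shAURKB and between 48.0 and 51.7 CPM with shGFP, and the RBPJ points with shAURKB are split, with replicate 2 at 45.4 CPM.

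The 3 receptor genes moved by different amounts and in different directions. NOTCH1 (ENSG00000148400, GRCh38 chromosome 9, 136494444 to 136545862, minus strand) encodes the receptor that drives this leukaemia. It had 768, 792 and 807 CPM in shAURKB replicates 1 to 3, against 571, 569 and 608 CPM in shGFP replicates 1 to 3. Every shAURKB library lay above every control. NOTCH1 rose by 0.44 ± 0.04 in log2 units (SE; 95% interval 0.35 to 0.53), to a level 1.35-fold that of the controls (edgeR adjusted p = 0.000669).

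NOTCH2 (ENSG00000134250, chromosome 1, 119911553 to 120069626, minus strand), a receptor better known for its role in B cells, had 114, 122 and 128 CPM with shAURKB, against 148.5, 145 and 147 CPM with shGFP. The arms were apart in the opposite direction to NOTCH1, with the shAURKB libraries spread wider than the controls. It fell by 0.28 ± 0.05 in log2 units, to 82.5% of the control level (edgeR adjusted p = 0.0107). Reads of partial copies of NOTCH2 on chromosome 1 could be assigned to either gene. The copy NOTCH2NL had 6 to 32 reads per shAURKB library and 30 to 36 reads per shGFP library, against 1251 or more for NOTCH2.

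NOTCH3 (ENSG00000074181, chromosome 19, 15159038 to 15200981, minus strand) is a receptor gene and itself a known target of NOTCH1 in T-ALL. It had 127, 88 and 91 reads with shAURKB, against 548, 495 and 606 reads with shGFP. Scaled to library size this was 11.1, 8.58 and 8.63 CPM with shAURKB, against 51.7, 48.0 and 50.1 CPM with shGFP. The spread within either arm was small beside the gap between them. NOTCH3 had a log2 fold change of -2.40 ± 0.11 (95% interval -2.67 to -2.13), which left 19% of the control level, a 5.27-fold lower value (edgeR adjusted p = 0.000123). NOTCH3 ranked 13 among the falls of the 14818 tested genes. The library with the COL1A2, KRT8, KRT18 and KRT19 reads was shGFP replicate 1. Without that library the log2 fold change was -2.37 for NOTCH3, 0.42 for NOTCH1, -0.27 for NOTCH2 and -1.85 for HES4. The same 4 genes were called.

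**Figure D2:**
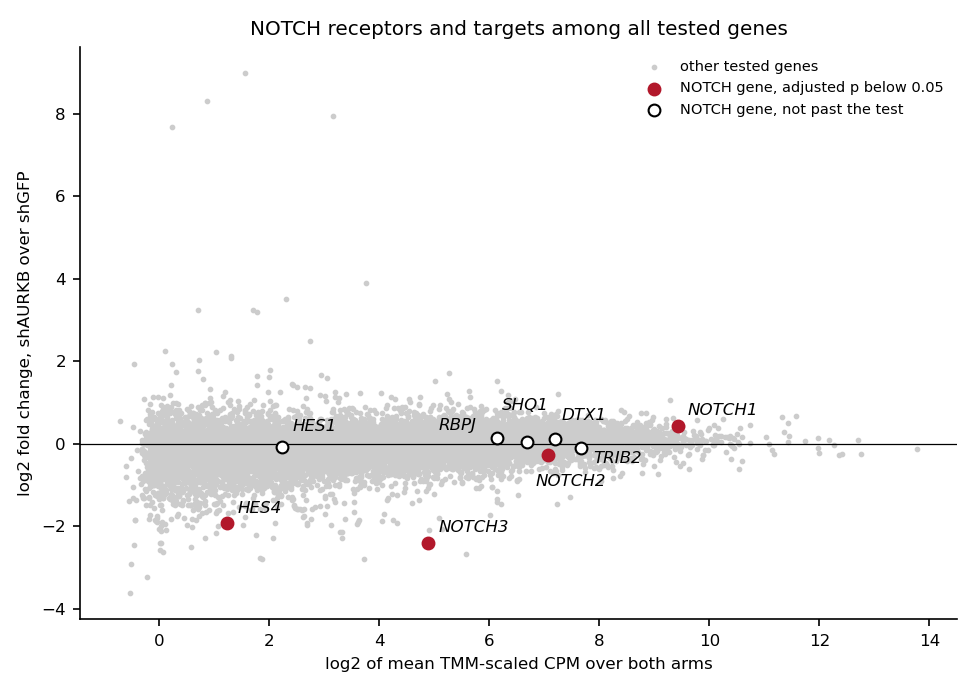
The log2 fold change of every tested gene (shAURKB over shGFP) against the log2 of its mean CPM; grey points are all other tested genes, red points the 4 NOTCH genes past the test and open points the 5 not past it. NOTCH3 (-2.40) and HES4 (-1.93) lie at the lower edge of the cloud, and NOTCH1 (0.44) lies above 0 among the highly expressed genes.

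Levels of different genes were compared per gene length, in the deposited FPKM, which are fragments normalised to gene length and library depth. The shares and ratios below depend on those lengths, and the length used for NOTCH2 exceeds that used for NOTCH1. In shAURKB replicate 1, 8776 NOTCH1 reads gave 71.0 FPKM and 1304 NOTCH2 reads gave 4.94 FPKM. One length served for all NOTCH1 reads, so any from the rearranged allele were not scaled apart. Summed over NOTCH1, NOTCH2 and NOTCH3, receptor mRNA came to 77.0, 79.3 and 80.5 FPKM with shAURKB, against 66.3, 65.5 and 69.5 FPKM with shGFP. All 3 shAURKB libraries were above the controls. NOTCH1 made up 92.2 ± 0.081% of the sum with shAURKB and 83 ± 0.571% with shGFP (SD, n = 3 each). NOTCH2 made up 6.64 ± 0.211% with shAURKB and 9.82 ± 0.287% with shGFP. The NOTCH3 share was 1.34%, 1.01% and 0.99% with shAURKB, against 7.5%, 7.04% and 6.92% with shGFP, a difference of -6.04 percentage points. Each of these shares and the sum had a two-sided exact permutation p of 0.1, the smallest that 3 libraries against 3 allow. Per length, NOTCH1 exceeded NOTCH3 68.8-fold to 93.1-fold in the shAURKB libraries and 11-fold to 12.1-fold in the shGFP libraries.

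**Figure D3:**
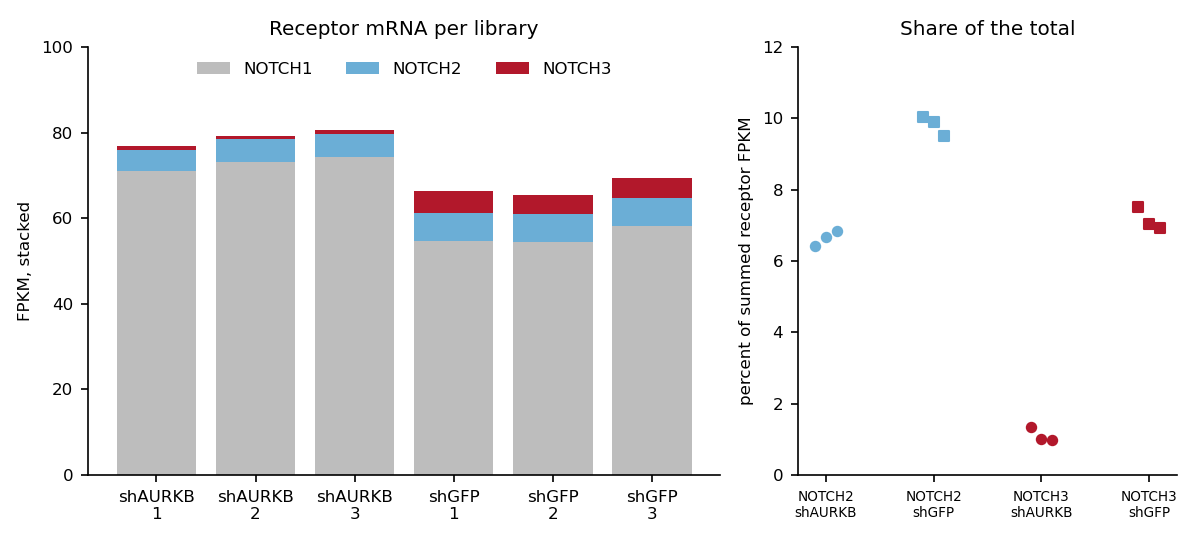
Left, stacked FPKM of NOTCH1, NOTCH2 and NOTCH3 in each library; right, NOTCH2 and NOTCH3 as a percentage of that sum, circles for shAURKB and squares for shGFP, 1 point per library. The summed level is higher with shAURKB, while the NOTCH3 share is between 0.99% and 1.34% there and between 6.92% and 7.5% with shGFP.

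The nuclear partner RBPJ (ENSG00000168214, chromosome 4, 26163455 to 26435131, plus strand), which brings the intracellular domain to DNA and represses the same genes in its absence, gave no stable estimate. It had 89.8, 45.4 and 84.8 CPM with shAURKB, against 68.1, 63.8 and 68.3 CPM with shGFP. Both extremes of the 6 libraries lay in the shAURKB arm: replicate 2 was the lowest, at 0.713 of the next lowest library, and replicate 1 the highest. With a log2 fold change of 0.14 ± 0.23 (95% interval -0.41 to 0.68), RBPJ was not called (edgeR adjusted p = 0.712). Leaving out shAURKB replicate 2 gave 0.39 (edgeR adjusted p = 0.0169) and leaving out shAURKB replicate 1 gave -0.03 (adjusted p = 0.947), so its direction rests on single libraries. Among 9891 genes of at least 10 CPM, 0.526% were as uneven in that library, lowest there and under 0.75 of the next lowest value, and 0.546% to 0.597% in each of the others.

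HES1 and HES4 encode basic helix-loop-helix repressors and are direct NOTCH targets. HES1 (ENSG00000114315, chromosome 3, 194136145 to 194138732, plus strand) had 51, 46 and 49 reads with shAURKB, against 59, 49 and 50 reads with shGFP. Its levels of 4.46, 4.49 and 4.65 CPM with shAURKB lay within the 4.13 to 5.57 CPM of the controls. At a log2 fold change of -0.09 ± 0.16 it was not called (edgeR adjusted p = 0.757). Its 95% interval of -0.46 to 0.29 holds neither a halving nor a doubling. HES4 (ENSG00000188290, chromosome 1, 998962 to 1000172, minus strand) had 10, 11 and 10 reads with shAURKB, against 44, 29 and 50 reads with shGFP. The arms were well apart, although shGFP replicate 2 was lower than the other controls. It fell by 1.93 ± 0.24 in log2 units (95% interval -2.50 to -1.37), to 26.2% of the control level (edgeR adjusted p = 0.00247). It was kept by the low-count filter through its control libraries, and DESeq2 gave it no adjusted p (log2 fold change -1.94, unadjusted p = 1.5e-05). The ratio of HES4 to HES1 FPKM was 0.146, 0.178 and 0.152 with shAURKB, against 0.556, 0.442 and 0.746 with shGFP, with no overlap (two-sided exact permutation p = 0.1, the smallest possible). These FPKM use a longer length for HES4 than for HES1, although the HES4 gene spans 1211 bases and HES1 2588. The size of the ratio, and whether HES4 lies below HES1, thus depend on those lengths. The fold change of the ratio between the arms does not.

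The promoters of these HES genes are shown because the genes share a motif arrangement there, which the search below describes. RBPJ binds DNA at motifs close to GTGGGAA, and pairs of such motifs facing each other are known to bind paired NOTCH complexes. RefSeq promoter sequences (GRCh38.p14) were searched on both strands for GTGGGAA and for GTGNGAA, which includes it, over the 250 bases before each annotated start. Entries were found for 9 of the 10 genes, with 5 starts for RBPJ, and none for DTX1. GTGNGAA occurred in 11.64% of all 35116 windows and GTGGGAA in 5.43%. Among the 9 genes both were found in HES1, HES4 and 1 of the 5 RBPJ windows, while NOTCH1, NOTCH2, NOTCH3, NRARP, TRIB2 and SHQ1 had no match in these windows. The stretches below run 5′ to 3′ on each gene's own strand with 20 bases on each side, and capitals mark the matches (TTCACAC and TTCCCAC are matches on the other strand).
HES4, chr1:1000125-1000194, minus strand: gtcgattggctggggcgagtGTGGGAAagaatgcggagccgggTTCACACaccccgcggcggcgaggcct
HES1, chr3:194136043-194136112, plus strand: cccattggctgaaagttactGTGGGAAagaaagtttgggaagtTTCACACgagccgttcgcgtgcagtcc
RBPJ, chr4:26319611-26319699, plus strand: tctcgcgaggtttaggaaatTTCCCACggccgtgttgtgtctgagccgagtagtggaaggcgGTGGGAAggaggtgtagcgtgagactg
In HES4 the motifs lie 77 to 71 and 54 to 48 bases before the RefSeq start, and in HES1 85 to 79 and 62 to 56 bases before it. In both genes the motifs face each other with 16 bases between them, and the first reads GTGGGAA and the second GTGTGAA. A facing pair at any distance occurred in 67 of the 35116 windows (0.191%). The distance of 16 bases was taken from HES1 and HES4 themselves, so their place in the next count was fixed beforehand. A facing pair at that distance occurred in 3 windows, those of HES1, HES4 and ITIH4. In RBPJ the motifs point away from each other. The file places the 5′ end of HES4 at 1000172. By that annotation the second HES4 motif lies inside the gene and the first straddles its 5′ end, so the pair is upstream only of the RefSeq start.

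None of the 3 other tested target genes was called by edgeR, DESeq2 or limma-voom, and 2 of them, DTX1 and TRIB2, had an unadjusted p below 0.05 in edgeR. DTX1 (ENSG00000135144, chromosome 12, 113056709 to 113098028, plus strand), an E3 ubiquitin ligase gene of the Deltex family that acts on NOTCH, had 154, 147 and 157 CPM with shAURKB, against 134, 142 and 146 CPM with shGFP. The arms were apart by a margin smaller than the spread within them. Its log2 fold change of 0.12 ± 0.05 was not called (edgeR adjusted p = 0.134), and the 95% interval ran from 0.0002 to 0.24. TRIB2 (ENSG00000071575, chromosome 2, 12716889 to 12742734, plus strand), a pseudokinase gene that is oncogenic in leukaemia, had 201.5, 196 and 188 CPM with shAURKB, against 209, 211 and 211 CPM with shGFP. All shAURKB libraries lay below the controls. TRIB2 had a log2 fold change of -0.11 ± 0.04 and was not called (edgeR adjusted p = 0.086), but it passed in 4 of 16 alternatives, namely upper-quartile scaling (-0.16) and the 3 FPKM fits (-0.16 each).

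SHQ1 (ENSG00000144736, chromosome 3, 72749277 to 72861914, minus strand) assembles H/ACA ribonucleoproteins, which guide pseudouridylation of RNA and form part of telomerase. It had 100, 106 and 106 CPM with shAURKB, against 98.5, 102 and 101 CPM with shGFP, and the arms overlapped. Its log2 fold change of 0.05 ± 0.05 (95% interval -0.06 to 0.16) was not called (edgeR adjusted p = 0.485) and turned to -0.0038 with upper-quartile scaling. NRARP (ENSG00000198435, chromosome 9, 137300482 to 137302251, minus strand) encodes an ankyrin-repeat protein that limits NOTCH signalling in a feedback loop. It had 0 reads in the shAURKB libraries and 2, 0 and 0 reads with shGFP, so it was not tested. A count of 0 allows up to 3 reads, which is 0.263 to 0.292 CPM in the shAURKB libraries and 0.248 or 0.291 CPM in the shGFP libraries at 0. This known target was at or below detection in both arms.

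**Figure D4:**
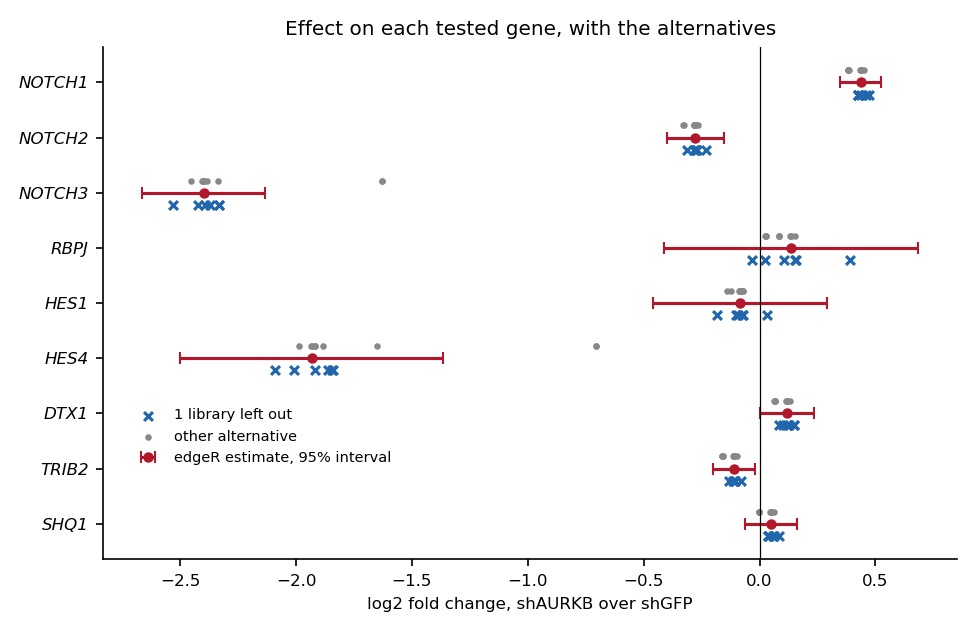
The log2 fold change (shAURKB over shGFP) of the 9 tested genes: red points are edgeR estimates with 95% intervals, blue crosses the values with 1 library left out and grey points those under other scalings, filters and tools. NOTCH1 stays right of 0 and NOTCH2, NOTCH3 and HES4 left of it throughout, RBPJ ranges from -0.03 to 0.39, and the grey points of NOTCH3 (-1.63) and HES4 (-0.71) nearest 0 come from FPKM with a pseudocount of 1.

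Per length, the order of the genes was NOTCH1 (72.8 ± 1.65 FPKM), TRIB2 (34.1 ± 1.29), DTX1 (22.9 ± 0.705), SHQ1 (11.5 ± 0.384), NOTCH2 (5.25 ± 0.285), RBPJ (3.67 ± 1.21), HES1 (1.72 ± 0.033), NOTCH3 (0.875 ± 0.136), HES4 (0.273 ± 0.028) and NRARP (0) with shAURKB (mean ± SD in FPKM, n = 3). No neighbours in that order overlapped in their library values. With shGFP the order was the same but for NOTCH3, which stood at 4.8 ± 0.182 FPKM, between NOTCH2 at 6.58 ± 0.087 FPKM and RBPJ at 3.46 ± 0.136 FPKM. There too no neighbours overlapped. In FPKM NOTCH3 thus lay above RBPJ and HES1 in every control and below both in every shAURKB library. This order and the percentiles below rest on the deposited gene lengths. In CPM, which uses no length, NOTCH3 lay below RBPJ in every control (51.7, 48.0 and 50.1 against 68.1, 63.8 and 68.3 CPM). With shAURKB it stayed above HES1 in CPM (11.1, 8.58 and 8.63 against 4.46, 4.49 and 4.65 CPM). NOTCH1 was at the 98.4 percentile and TRIB2 at the 97.4 percentile of control FPKM among genes with any read, and HES4 at the 54.6 percentile.

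The rest of the pathway was followed through 78 further genes, listed by role with earlier results of these data known. Of the 62 tested, 7 rose and 5 fell, against 12.5% and 10.9% of all tested genes, and 50 did not pass. Their median log2 fold change was -0.0040. Among the ligand genes, DLL3, a ligand that blocks NOTCH within the same cell, was the 1 tested. It had 2.71, 2.63 and 3.22 CPM with shAURKB, against 2.36, 1.94 and 2.23 CPM with shGFP (log2 fold change 0.39 ± 0.18, edgeR adjusted p = 0.197). DLL1, DLL4, JAG1 and JAG2 were too low to test. JAG1 and JAG2 reached 2.26 and 1.6 CPM in shGFP replicate 1 and at most 0.263 CPM in the 5 other libraries. The receptor gene NOTCH4 was also too low to test.

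None of the 6 genes for receptor glycosylation and furin cleavage passed in edgeR, in which 2 had an unadjusted p below 0.05, while DESeq2 and limma-voom each called 1, MFNG. Over all tested genes DESeq2 called 18% and limma-voom 23.4%. MFNG, a Fringe enzyme that extends sugars on NOTCH and so alters ligand choice, had 50.6, 59.1 and 61.9 CPM with shAURKB, against 50.7, 34.8 and 33.9 CPM with shGFP, where replicate 1 lay level with the lowest shAURKB library. Its log2 fold change was 0.52 ± 0.17 (edgeR adjusted p = 0.0611). Leaving out shGFP replicate 1 gave 0.74, at an adjusted p of 0.00971. Of the receptor-shedding protease genes, ADAM17 fell by 0.28 ± 0.07 (edgeR adjusted p = 0.0357), a call lost under 9 of 16 alternatives (adjusted p up to 0.107), and ADAM10 was not called. None of 5 tested gamma-secretase genes passed in edgeR, DESeq2 or limma-voom, and 1 had an unadjusted p below 0.05 in edgeR. This was APH1A, a scaffold subunit (log2 fold change 0.36 ± 0.13, edgeR adjusted p = 0.0873), which was called without shGFP replicate 2 (0.52, adjusted p = 0.0164). PSEN2, a catalytic subunit gene, was not tested.

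Among 7 tested coactivators of the RBPJ complex, KAT2B, a histone acetyltransferase also called PCAF, was the 1 that fell. It had 9.19, 8.78 and 9.29 CPM with shAURKB, against 20.5, 18.9 and 18 CPM with shGFP. All libraries of the arms were apart, and it fell by 1.07 ± 0.09 in log2 units (edgeR adjusted p = 0.000698). MAML2, a Mastermind gene, was not tested. Of 14 tested corepressor genes 4 rose and none fell in edgeR, beside 12.5% higher and 10.9% lower over all tested genes. DESeq2 called 3 of the 14 and limma-voom 4, beside 18% and 23.4% of all tested genes in either direction. AES, a short Groucho-family repressor, rose by 0.25 ± 0.05 (edgeR adjusted p = 0.0103). The histone deacetylase gene HDAC1 rose by 0.22 ± 0.04 (adjusted p = 0.00872). Its relative HDAC2, named because of that count, rose by 0.20 ± 0.04 (edgeR adjusted p = 0.0104), a call lost under 3 of 16 alternatives. TLE1 and TLE2 were not tested.

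Of 14 genes for endocytosis and ubiquitination of NOTCH, 2 rose and none fell in edgeR. Over all tested genes 12.5% were higher and 10.9% lower. CDK8, the Mediator kinase that with cyclin C marks the NOTCH intracellular domain for destruction, had 48.2, 43.6 and 48.8 CPM with shAURKB, against 30.9, 30.1 and 31.9 CPM with shGFP. Its arms were apart, and it rose by 0.60 ± 0.07 in log2 units (edgeR adjusted p = 0.00204). DTX3L, a Deltex relative, rose by 0.30 ± 0.05 (edgeR adjusted p = 0.00908). Of the other HES and HEY genes only HES6 and HEYL were tested, and neither passed in edgeR or limma-voom, nor HES6 in DESeq2, which gave HEYL no adjusted p. HEYL, the 1 with an unadjusted edgeR p below 0.05, had 0.70, 0.78 and 1.23 CPM with shAURKB, against 1.42, 1.46 and 1.49 CPM with shGFP (log2 fold change -0.68 ± 0.27, edgeR adjusted p = 0.115). With 8, 8 and 13 reads against 15, 15 and 18, it was kept by the low-count filter through its control libraries, where it was high. HES2, HES3, HES5, HES7, HEY1 and HEY2 were not tested.

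**Figure D5:**
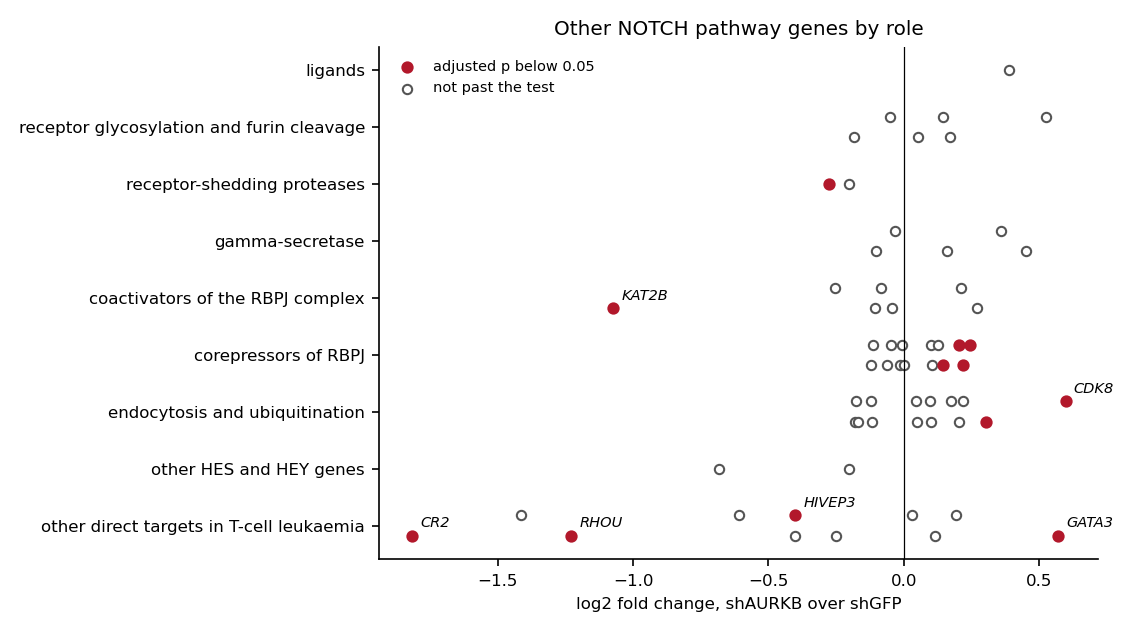
The log2 fold change (shAURKB over shGFP) of the 62 tested pathway genes outside the 10, 1 point per gene in rows by role, with red for an adjusted p below 0.05 and open points for the rest. Most points lie within 0.5 of 0, and those farthest out among the called genes are CR2 (-1.82), RHOU (-1.23), KAT2B (-1.07), CDK8 (0.60) and GATA3 (0.57).

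Among 11 tested direct targets known from T-cell leukaemia, 3 fell, 1 rose and 7 did not pass in edgeR, beside 10.9% lower and 12.5% higher over all tested genes. DESeq2 called 5, these 4 and IL7R, and limma-voom called these 4, beside 18% and 23.4% of all tested genes in either direction. Their median log2 fold change was -0.40, which lies below the -0.0042 of all tested genes. CR2, a complement receptor gene, had 5.17, 4.49 and 4.08 CPM with shAURKB, against 16, 15.3 and 17.1 CPM with shGFP. No library of either arm came near the other, and CR2 fell by 1.82 ± 0.13 in log2 units (edgeR adjusted p = 0.000374). RHOU had 6.04, 4.19 and 5.5 CPM with shAURKB, against 12.3, 11.2 and 13.6 CPM with shGFP. It fell by 1.23 ± 0.16 (edgeR adjusted p = 0.00324). Named because of the count, the zinc-finger gene HIVEP3 fell by 0.40 ± 0.10 (edgeR adjusted p = 0.0307, lost under 5 of 16 alternatives) and the T-lineage transcription factor gene GATA3 rose by 0.57 ± 0.04 (adjusted p = 0.000434).

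Targets that did not pass included genes in which 1 library stood apart, chosen here after their values were seen. IL7R, the interleukin receptor gene, had 5.78, 5.95 and 7.21 CPM with shAURKB, against 21.5, 6.6 and 22.2 CPM with shGFP. Its log2 fold change was -1.42 ± 0.43 (edgeR adjusted p = 0.0544). It was called in 4 of 16 alternatives, namely DESeq2 (adjusted p = 0.00356), edgeR with upper-quartile scaling (0.0483), edgeR with no low-count filter (0.0486) and edgeR without shGFP replicate 2 (-1.79, adjusted p = 0.00225). TCF7, which encodes a T-lineage factor, had 745, 370 and 772 CPM with shAURKB, against 934, 957 and 991 CPM with shGFP. Its log2 fold change was -0.61 ± 0.25 (edgeR adjusted p = 0.124). Leaving out shAURKB replicate 2, it was -0.34 at an adjusted p of 0.00714. In TCF7 as in RBPJ, shAURKB replicate 2 was the lowest of the 6 libraries. MYC, a central NOTCH1 target in this leukaemia, was not called and had no stable sign. PTCRA, the pre-T-cell receptor alpha gene, was too low to test.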

How the data were processed

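The authors deposited whole-number counts and FPKM per Ensembl gene for 6 libraries, whose arms and replicate numbers come from the sample titles. HISAT2 2.0.4, StringTie 1.3.0 and edgeR on GRCh38 (hg38) are named, per the submitters' processing notes. The strand setting, the handling of shared reads and the role of each tool are steps not given in the sources used here, so reads of overlapping or near-identical genes cannot be told apart. The FPKM the authors deposited equal counts divided by a gene length and a library depth, to within 3.09e-05 of each value in 12404 genes checked. How the lengths were set is not given in the sources used here, so FPKM levels of different genes depend on them.

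Counts were filtered with filterByExpr (minimum 10, total 15), scaled by TMM and tested in edgeR 4.0.16 (R 4.3.3) by its two-sided quasi-likelihood test, in a model holding only the arm. Benjamini-Hochberg adjustment ran over all 14818 genes. CPM values are TMM-scaled. SE is the log2 fold change over the root of F, and 95% intervals use its t distribution. Alternatives used DESeq2 1.42.0, limma 3.58.1, log2(FPKM + 1) or log2(FPKM + 0.1), 2 other scalings, 2 other filters, a replicate block and each library left out. Low FPKM folds are understated on such scales. Replicates of an arm differed by more than counting noise (chi-square per degree of freedom 6.89 to 7.75). The design text calls them biological replicates, without naming separate cultures, so p-values measure the spread between these libraries. Floors cover counting error only.

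The 10 genes and all lists were chosen with earlier results of these data known. Named beside the 10 genes and AURKB are, per role list, the 2 called genes of largest absolute log2 fold change, or the gene of smallest p where none was called. Any other gene is named because a count or a result turns on it, after its values were seen. One corepressor gene is counted but not reported here.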

Additional observations from a re-analysis of the deposited data

How the results depend on the processing

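NOTCH1, NOTCH2 and NOTCH3 kept their direction and passed the test under all 16 alternatives, with log2 fold changes of 0.38 to 0.47, -0.33 to -0.23 and -2.53 to -1.63. HES4 did so in the 15 that gave it an adjusted p (-2.09 to -0.71). HES1, DTX1 and SHQ1 passed in none. The count of the 10 genes called was 3 to 5. The sign turned for SHQ1 with upper-quartile scaling (-0.0038) and with FPKM at a pseudocount of 1 (-0.0013), of 0.1 (-0.0014) and without a filter (-0.0013), for RBPJ and MYC without shAURKB replicate 1, and for HES1 without shGFP replicate 1. With 1 library left out, RBPJ ranged from -0.032 to 0.39, MYC from -0.13 to 0.36 and HES1 from -0.19 to 0.032. Over all genes, 1847 were called higher and 1609 lower. The lower count was 998 to 1056 with any 1 library left out, and the higher count 914 with unfiltered FPKM. With the replicate number as a block, 1286 genes were higher and 1027 lower, and the same 4 NOTCH genes passed. Same-numbered libraries did not deviate together (correlations -0.0887, -0.0313 and -0.0365). Whether they were set up together is not given, and the main model did not pair them. The NOTCH3 share fell by 5.38 points in raw counts in place of FPKM. The causes of these shifts were not tested. At the depth of these libraries NRARP, NOTCH4 and most ligand and HEY genes could not be compared.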

Other observations

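Some genes beside or related to the NOTCH genes were looked at after their values were seen. NALT1, a long noncoding RNA gene beside the NOTCH1 start on the opposite strand, had 15, 13 and 14 reads with shAURKB, against 31, 20 and 31 reads with shGFP, while NOTCH1 itself rose. Its log2 fold change was -0.92 ± 0.22 (edgeR adjusted p = 0.0259), a call lost whenever 1 library other than shGFP replicate 2 was left out (adjusted p 0.073 to 0.0789) or the replicate number was a block (0.0591). NOTCH4, the endothelial member of the receptor family, had 7, 1 and 2 reads with shAURKB, against 23, 11 and 11 reads with shGFP, too few to be tested, and the arms did not overlap. RBPJL, an RBPJ relative, had 0, 1 and 0 reads with shAURKB, against 8, 7 and 11 reads with shGFP, also untested. Over the whole genome, 21591 to 21816 genes had a read per shAURKB library and 22143 to 23044 per shGFP library. The part of this difference in such low counts was not tested. The partial NOTCH2 copy NOTCH2NL had 28, 6 and 32 reads with shAURKB, against 30, 34 and 36 reads with shGFP, with shAURKB replicate 2 again the lowest library (log2 fold change -0.57 ± 0.45, edgeR adjusted p = 0.408). NOTCH2 itself had 1251 to 1348 reads with shAURKB and 1494 to 1784 reads with shGFP.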
